A study of Mus musculus with 13 samples.

Results

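miR-122 is the most abundant microRNA (miRNA) of hepatocytes, and both of its mature arms, mmu-miR-122-5p and mmu-miR-122-3p (named without the mouse prefix from here on), were followed here in vesicles from the blood of tumour-bearing mice. The arms were taken by name: 2 of 1354 mature miRNAs in the plasma table, and 1 (miR-122-5p) of 1164 in the table of tumour cell vesicles, out of 1452 miRNAs in both tables together. Of the pair, miR-122-5p passed the filter on low counts in plasma and miR-122-3p did not. All material was from the mouse strain Balb/C or from C26 cells, a colon adenocarcinoma line listed under the same strain. The C26-bearing group comprised 6 libraries of vesicles pelleted from plasma of mice labelled cachectic (wasting with a tumour), killed 14 days after 500000 C26 cells had been injected under the skin of the back. The control group comprised 4 libraries of plasma vesicles from mice labelled healthy. The third group comprised 3 libraries of vesicles from serum-free medium conditioned for 48 h by cultured C26 cells (tumour microvesicles, TMVs). The labels give no age, sex or mock treatment. Some controls have a double number in their names, 2 and 5 for replicate 2 and 3 and 4 for replicate 3, while replicate 4 is named with the number 6, and whether animals were pooled there is not stated.

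miRNAs are short RNAs that guide Argonaute proteins to messenger RNAs and repress them. Each is cut from a hairpin precursor whose arms give a 5p and a 3p product, of which one is usually loaded as the guide and the other is mostly degraded. In hepatocytes miR-122-5p is the guide, and it is known for its roles in cholesterol and lipid metabolism and in keeping the differentiated state of the liver. Hepatocytes release it into blood, where it is widely measured as a marker of liver injury.

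The miRNAs set beside miR-122 below are shown with the seed (bases 2 to 8), the part that pairs with target RNAs, in capitals. They are the ones used as partners in ratios (miR-192-5p, miR-148a-3p and the red cell miRNA miR-451a), the cluster mate of miR-192 (miR-194-5p), and the pair of liver-expressed miRNAs with the highest fitted differences (miR-101a-3p and miR-101b-3p). Sequences are from RefSeq on GRCm38.p6, where 14 of the 16 miRNAs of the liver-expressed list were matched by name.
miR-192-5p: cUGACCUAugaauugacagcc
miR-194-5p: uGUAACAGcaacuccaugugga
miR-148a-3p: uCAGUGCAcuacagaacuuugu
miR-451a: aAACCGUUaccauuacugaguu
miR-101a-3p: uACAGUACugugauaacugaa
miR-101b-3p: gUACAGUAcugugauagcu
These 6 seeds all differ, but those of miR-101a-3p and miR-101b-3p overlap, as the same stretch with a shifted start. The ratio partners miR-192-5p, miR-148a-3p and miR-451a are not members of one seed family. miR-192-5p shares its seed with miR-215-5p, which was also tested in plasma, and miR-148a-3p shares its seed with miR-148b-3p and miR-152-3p.

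Plasma libraries held from 7962 to 131385 counts and TMV libraries from 112357 to 170571. The level that 3 counts give, used as the limit where none were seen, ranged from 22.8 to 377 CPM (counts after division by library size) over the plasma libraries. In C26-bearing replicates 1 to 4 and control replicate 4, miR-5119 took from 26.6% to 58.7% of all counts, against at most 2.55% in the other 5 plasma libraries, and the share and fold change of miR-122-5p are also given with regard to it. Whether every library is a separate animal is not stated, and the p-values rest on the spread from library to library, which may be technical. Ligation and amplification favour some sequences over others, so levels of different miRNAs or arms within a library are compared as counts and not as molecules.

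miR-122-5p was among the leading miRNAs of every control library and of 4 of the 6 C26-bearing libraries. In the controls it held 25.5%, 24.8%, 7.58% and 5.87% of all counts in replicates 1 to 4. In C26-bearing mice it held 8.19%, 5.03%, 0.508%, 5.12%, 0.524% and 4.79% in replicates 1 to 6. Both groups were uneven: control replicates 1 and 2 stood far above control replicates 3 and 4, and C26-bearing replicates 3 and 5 stood apart below the other 4. The groups overlapped through C26-bearing replicate 1, which lay above control replicates 3 and 4, while the other 5 C26-bearing libraries lay below all controls.

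Counting error was small beside this spread. The 95% Wilson interval ran from 25.3% to 25.7% in control replicate 1 and from 0.446% to 0.616% in C26-bearing replicate 5, where the share rested on 146 counts. Amplified reads carry no molecular identifiers here, so these intervals cover counting error only. By rank, miR-122-5p was the most abundant miRNA of control replicates 1 and 2 and had rank 3 in control replicates 3 and 4. It had ranks 4, 3, 2 and 2 in C26-bearing replicates 1, 2, 4 and 6, but ranks 17 and 33 in replicates 3 and 5. The miRNAs ahead of it in the libraries of rank 2 to 4 were miR-148a-3p, miR-5119, miR-486a-5p and, in C26-bearing replicate 1, the muscle miRNA miR-1a-3p. miR-486a-5p is listed here for red cells, but its source in these libraries was not tested.

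**Figure D1:**
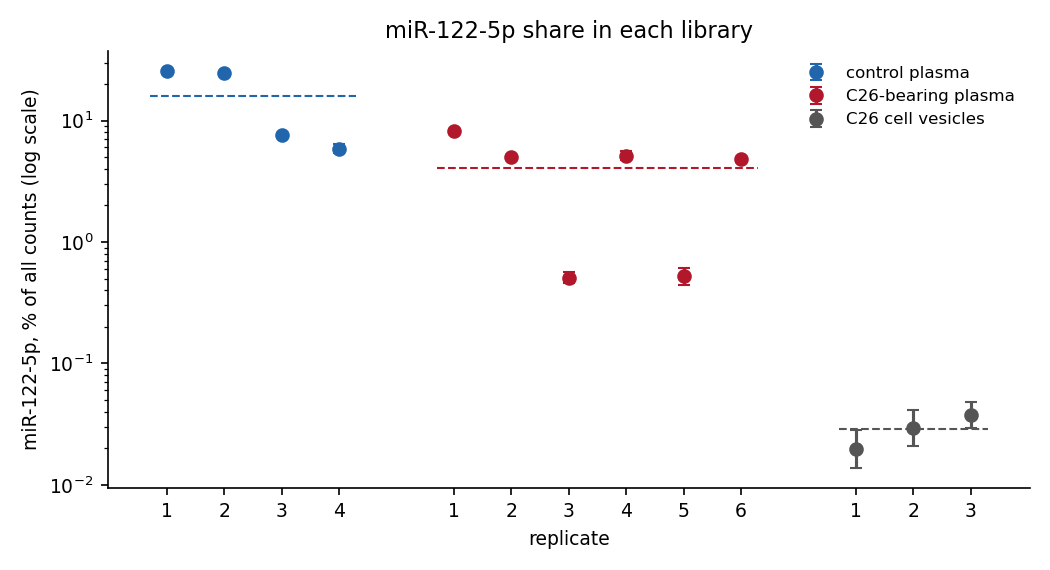
Share of all counts held by miR-122-5p (vertical axis, percent, log scale) in each library, by replicate number within control plasma, C26-bearing plasma and C26 cell vesicles. Points are libraries, bars 95% Wilson intervals and dashed lines group means; C26-bearing replicates 3 and 5 lie near 0.5%, and the TMV libraries lie at or below 0.0375%.

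The comparison of C26-bearing with control plasma asks which vesicle miRNAs differ when the mice carry the tumour. The mean share of miR-122-5p was 15.9% ± 10.7 (SD, n = 4) in controls against 4.03% ± 2.99 (SD, n = 6) with the tumour, a 3.95-fold difference of means. In these bulk libraries, fewer vesicles from a cell type and less of its miRNA per vesicle cannot be told apart. The unadjusted exact permutation p was 0.0143 (two-sided, all 210 splits), and adjusted over the 6 measures taken within libraries it was 0.0857, so the difference did not pass 0.05. The adjusted exact permutation p was 0.0476 without C26-bearing replicate 1, the library that overlaps the controls. Leaving it out ends the overlap, so the unadjusted p (0.00794) was the smallest that 126 splits allow, and this setting is no separate support. With any other library left out, the adjusted exact permutation p was from 0.0714 to 0.214. On the scale of TMM-scaled CPM, fitted over 130 miRNAs with edgeR's quasi-likelihood test, the log2 fold change was -1.92 (SE 0.819), with a Benjamini-Hochberg adjusted p of 0.395.

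This miRNA ranked 11 of 130 by p and 4 of 130 from the lowest log2 fold change. edgeR called 0 of the 130 (0%) at an adjusted p of 0.05, and 15 (11.5%) had an unadjusted p under 0.05, 6 of them lower (4.62%), miR-122-5p with an unadjusted p of 0.0385 in the edgeR fit among these. DESeq2 called 4 (3.08%) and limma voom with quality weights 17 (13.1%). miR-122-5p was called by neither, with adjusted p of 0.202 in DESeq2 and 0.147 in voom. With low counts left in, edgeR called 4 of 955 miRNAs (0.419%), and miR-122-5p was one of them, with a log2 fold change of -2.14 (SE 0.488, edgeR adjusted p = 0.0103); the median of all miRNAs in that fit stood at 0.88. On the TMM-scaled CPM, 5 of the 6 C26-bearing libraries lay below all controls for miR-122-5p, a separation or better that 5 of 130 miRNAs (3.85%) showed.

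miR-5119 sets how much of each library is left for other miRNAs, so the share was also taken without it. Of the counts other than miR-5119, miR-122-5p then held 25.5%, 25.0%, 7.63% and 10.9% in control replicates 1 to 4. In C26-bearing replicates 1 to 6 it held 11.1%, 8.18%, 1.23%, 8.69%, 0.538% and 4.81%. The overlap was wider on this scale, with 3 of 6 C26-bearing libraries below all controls. The means were 5.77% ± 4.29 (SD, n = 6) and 17.3% ± 9.33 (SD, n = 4), with an exact permutation p of 0.0333 (adjusted 0.100).

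Among the 5 plasma libraries with little miR-5119, the C26-bearing replicates 5 and 6 lay below control replicates 1, 2 and 3 in the share of all counts. The edgeR log2 fold change in these libraries was -2.55 (SE 1.21, adjusted p = 0.462). Among the 5 libraries rich in miR-5119 the single control, at 5.87%, lay inside the range of the 4 C26-bearing libraries, from 0.508% to 8.19%. There the edgeR log2 fold change was -0.69 (SE 1.24), with the lone control assumed to vary like the other group. The difference between these sets had an edgeR interaction estimate of 1.90 (SE 1.84, unadjusted p = 0.323). With labels exchanged only within each set, the exact permutation p for the share of all counts was 0.140 (adjusted 0.420; the smallest possible with these 50 splits is 0.02).

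Red cell RNA can be released when blood cells break during sampling, and miRNAs listed for red cells took an uneven part of these libraries. The 3 red cell miRNAs listed (miR-451a, miR-486a-5p and miR-144-3p) together held between 3.37% and 52.6% of the counts in C26-bearing libraries, with a median of 6.36%, and between 5.84% and 31.2% in controls, with a median of 21.3%. None of the 3 was at 0 over a group. They did not move together: in C26-bearing replicate 6, miR-486a-5p held 51.3%, while miR-451a held 1.28% and miR-144-3p 0.0279%. How much of the sum is red cell RNA was not tested. With miR-451a, the miR-486 rows and miR-5119 taken out of the total, the mean share of miR-122-5p in C26-bearing mice was 14.8 percentage points below that of controls (exact permutation p = 0.00952, adjusted 0.0571). Taking counts out of the total raises every share, so these points do not measure a larger difference than those in the share of all counts.

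Ratios to other miRNAs of the same library need no scaling between libraries. miR-192-5p, made in liver, gut and kidney, served as the first partner. The log2 ratio of miR-122-5p to miR-192-5p was 3.29, 3.30, 2.31 and 2.88 in control replicates 1 to 4. It was 2.01, 1.81, 0.39, 2.52, 1.14 and 3.87 in C26-bearing replicates 1 to 6. miR-122-5p had more counts than miR-192-5p in every plasma library, and the ratio was lowest in C26-bearing replicate 3 and highest in replicate 6. The groups overlapped, with 4 of 6 C26-bearing libraries below all controls. The difference of means was -0.99 on the log2 scale (exact permutation p = 0.162, adjusted 0.229).

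miR-148a-3p, abundant in liver and also made by many other tissues, held from 3.33% to 13.6% of the counts in the plasma libraries. The log2 ratio of miR-122-5p to miR-148a-3p was 0.25 ± 0.94 (SD, n = 4) in controls and -1.14 ± 1.60 (SD, n = 6) in C26-bearing mice (exact permutation p = 0.176, adjusted 0.229). C26-bearing replicates 3 and 5 lay at -3.02 and -3.22, while the other 4 lay between -0.73 and 0.52, inside or near the range of the controls. Against the red cell miRNA miR-451a the log2 ratio was 1.87 ± 1.52 (SD, n = 4) in controls and -0.02 ± 2.30 (SD, n = 6) in C26-bearing mice (exact permutation p = 0.190, adjusted 0.229). Replicates 3 and 5 again lay lowest, at -2.62 and -3.10, and the other 4 between 0.41 and 2.27. All 3 ratios had lower means in C26-bearing plasma, and none passed 0.05.

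**Figure D2:**
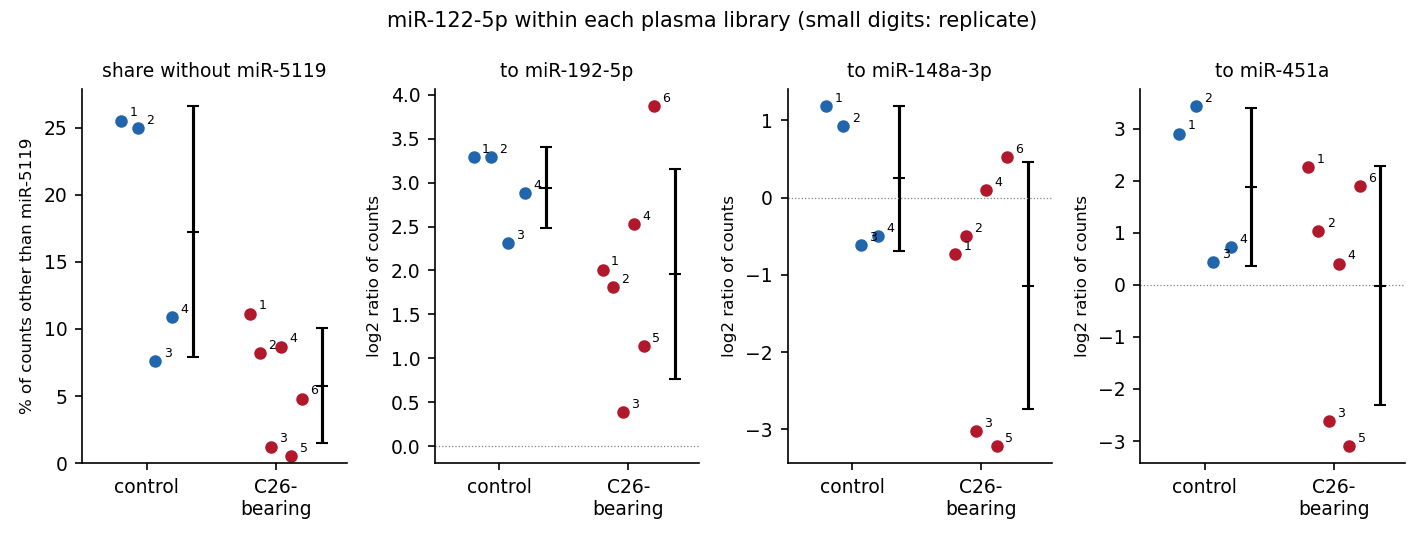
Measures of miR-122-5p taken within each plasma library: percent of the counts other than miR-5119, and log2 ratio of its count to that of miR-192-5p, miR-148a-3p and miR-451a (vertical axes), for control and C26-bearing plasma. Points are libraries with their replicate number, and black bars show mean ± SD; C26-bearing replicates 3 and 5 are the lowest of all 10 libraries in every panel.

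Over all 10 plasma libraries, liver-expressed miRNAs did not lie to one side as a group. Of 16 listed, 8 were tested in plasma, 4 with a log2 fold change below 0 and 4 above, and edgeR called 0. The median was -0.35, against 0.01 over all 130 tested, and 0.01 for the 7 other than miR-122-5p. This changed with the miR-5119 sets: among the 5 libraries with little miR-5119, 7 of the 8 lay below 0, with a median of -1.06 against -0.11 over all miRNAs tested there. With a term for the sets the list median was -0.68, against 0.03 over all, and among the 5 libraries rich in miR-5119, with 1 control, it was 0.39 against 0.23. miR-122-5p had the lowest value of the list and was the one member with an unadjusted edgeR p under 0.05.

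The miRNAs made from the miR-192 and miR-194 genes came next. Mir192 and one of the sources of miR-194-5p lie beside each other on chromosome 19, where the mature miR-194-5p spans 6264658 to 6264679 and miR-192-5p spans 6264857 to 6264877, both on the plus strand. miR-192-5p had a log2 fold change of -0.98 (SE 0.604, edgeR adjusted p = 0.636). Its TMM-scaled level was 28902, 21670, 11315 and 10886 CPM in control replicates 1 to 4 and 21013, 13695, 6107, 8850, 2083 and 3674 CPM in C26-bearing replicates 1 to 6. The lowest C26-bearing level was again that of replicate 5, and replicates 1 and 2 overlapped the controls. miR-194-5p, which a second gene on chromosome 1 also makes, had -0.90 (SE 0.587, edgeR adjusted p = 0.651), on 4 to 182 counts a library.

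miR-148a-3p had a log2 fold change of -0.71 (SE 0.509), with 5 of 6 C26-bearing libraries below all controls and replicate 1 above them all. Near or above 0 were miR-22-3p, found in most tissues, at 0.01 (SE 0.470), miR-30a-5p, made in liver and other epithelia, at 0.43 (SE 0.421), miR-101b-3p at 0.80 (SE 0.749) and miR-101a-3p at 1.50 (SE 1.07). As the sequences above show, miR-101b-3p begins 1 base before miR-101a-3p and is otherwise nearly the same, so counts can be shared between them. None of the 4 had an edgeR adjusted p under 0.651. Among the 8 listed but not tested, miR-802-5p had 1 count in all of plasma, miR-193a-5p 1, miR-193a-3p 8, miR-365-3p 13 and miR-148a-5p 50, while miR-802-3p had 0. miR-192-3p was not among the miRNAs counted in plasma. The depths of those that were counted allow no statement on a difference.

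**Figure D3:**
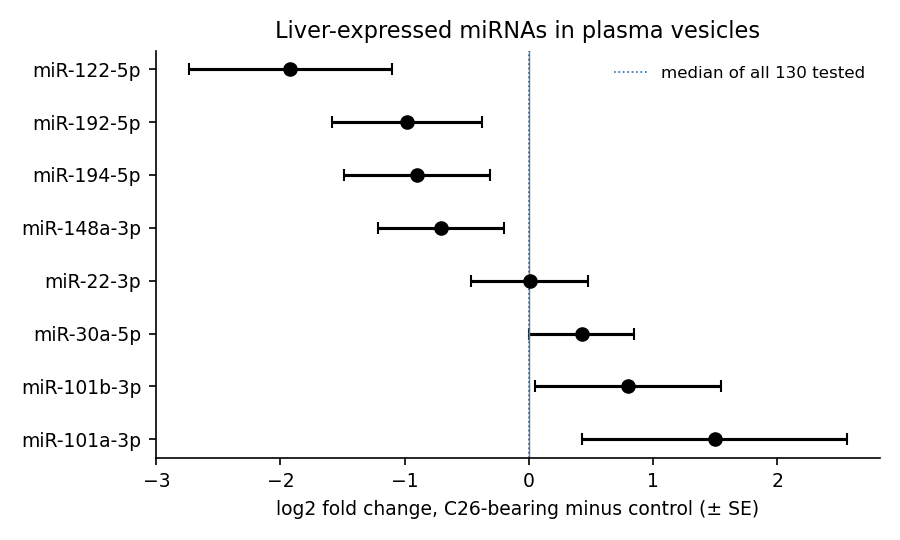
Log2 fold change of C26-bearing minus control plasma (horizontal axis, edgeR estimate ± SE) for the 8 tested miRNAs of the liver-expressed list. miR-122-5p lies lowest at -1.92, 4 members lie below 0 and 4 above, and the dotted line marks the median of all 130 miRNAs tested.

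Both arms come from 1 precursor. In the RefSeq and GENCODE M21 annotations of GRCm38, Mir122 lies on the plus strand of chromosome 18 from 65248861 to 65248926, within an exon of the transcript AC157910.3. RefSeq also lists Mir122b over the same bases, from 65248863 to 65248921. How reads over both were assigned is not stated. The authors' build is not stated in these sources.

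The arms of miR-122 were very unequal. Over the 10 plasma libraries there were 64330 counts of miR-122-5p and 22 of miR-122-3p, or 2924 counts of the 5p arm for each of the 3p arm. miR-122-3p had 12, 0, 4 and 0 counts in control replicates 1 to 4 and 2, 3, 1, 0, 0 and 0 in C26-bearing replicates 1 to 6. It was seen in 5 of 10 libraries and was most frequent in the library with the most miR-122-5p. Control replicate 2 had 0 counts beside 13812 of the 5p arm, which allows a 3p share of up to 0.0217% of both arms. The other libraries with 0 counts allow far more. Their limits were 0.642% for control replicate 4 and 0.596%, 2.05% and 0.194% for the C26-bearing libraries numbered 4, 5 and 6.

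The 3p share of both arms was 0.0373% and 0.0401% in control replicates 1 and 3, with 95% Wilson intervals from 0.0214% to 0.0652% and from 0.0156% to 0.103%. In C26-bearing replicates 1, 2 and 3 it was 0.126%, 0.0780% and 0.297%, and the interval of the last, which rests on 1 count, ran from 0.0524% to 1.66%. The mean share was 0.0194% ± 0.0224 (SD, n = 4) in controls and 0.0835% ± 0.117 (SD, n = 6) in C26-bearing mice (exact permutation p = 0.352, adjusted 0.352). Libraries without 3p counts entered the means and the test as 0%, although every such C26-bearing library had a limit above both means. C26-bearing replicates 1 and 3 also lay below their own limits, 0.190% and 0.890%. These means therefore do not measure low shares. The difference of means was 0.0642 percentage points, and 0.0215 without C26-bearing replicate 3. Pooled over libraries there were 16 counts in 56391 in controls, 0.0284% with a Wilson interval from 0.0175% to 0.0461%, and 6 in 7961 in C26-bearing mice, 0.0754% with an interval from 0.0345% to 0.164%. The pooled intervals cover counting error only and not the spread between libraries, and 12 of the 16 control counts came from replicate 1. A difference in arm use was not detectable at this depth. When low counts were not filtered, miR-122-3p had an edgeR log2 fold change of -0.65 (SE 1.58, adjusted p = 0.832), and with a filter of 10 CPM in 4 libraries -0.44 (SE 1.24, adjusted p = 0.900).

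**Figure D4:**
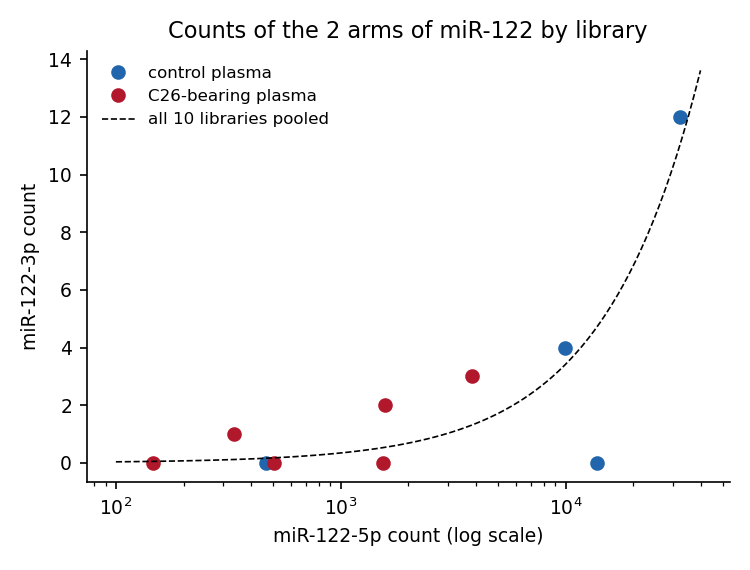
Counts of miR-122-3p (vertical axis) against counts of miR-122-5p (horizontal axis, log scale) in the 10 plasma libraries, blue for control and red for C26-bearing. The dashed line is the ratio of the pooled counts; 5 libraries lie at 0 on the vertical axis, among them control replicate 2 with 13812 counts of miR-122-5p.

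Vesicles of cultured C26 cells held little miR-122-5p. The TMV libraries had 29, 33 and 64 counts in replicates 1 to 3, shares of 0.0198%, 0.0294% and 0.0375% with a mean of 0.0289% ± 0.00887 (SD, n = 3). It ranked 144, 129 and 116 by abundance there. The Wilson intervals of these shares ran from 0.0138% to 0.0479%, above the floor of 0.00267% or less that 3 counts give in these libraries. The lowest plasma share, 0.508% in C26-bearing replicate 3, was above every TMV share.

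The makeup around miR-122-5p also differed between materials. In TMVs miR-122-5p had fewer counts than miR-192-5p, with 56, 47 and 105 counts of miR-192-5p and log2 ratios of -0.94, -0.50 and -0.71. All 10 plasma libraries had log2 ratios above 0. Against miR-148a-3p, which held 4.06% ± 0.758 (SD, n = 3) of TMV counts, the log2 ratio was -7.47, -7.37 and -6.61. Of the miRNAs listed for red cells, miR-451a had 68, 78 and 866 counts in TMVs and miR-486a-5p had 544, 380 and 1548. Their part in the TMV counts of miR-122-5p was not tested. TMVs and plasma were prepared and tabulated separately, so material and preparation cannot be told apart, and no test was made between them.

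The miRNAs whose plasma levels followed miR-122-5p most closely were sought by Pearson correlation of log2 TMM-scaled CPM over the 10 libraries, among 129 others. These correlations are descriptions: all points share the scaling of their library, and a miRNA that takes up to 25.5% of a library presses on the shares of the rest. miR-192-5p came first with r = 0.84 (Spearman rho 0.82), and r was 0.72 within the 6 C26-bearing libraries. It was followed by miR-455-5p (r = 0.71), miR-30e-3p (0.65), miR-148a-3p (0.65) and miR-200a-3p (0.63), an epithelial miRNA. Without the 2 libraries farthest from the median of miR-122-5p, C26-bearing replicates 3 and 5, these r values were 0.73, 0.69, 0.71, 0.65 and 0.54. Within the 6 C26-bearing libraries r was lower for the last 4, at 0.35, 0.43, 0.38 and 0.21. In these libraries miR-455-5p had only 0 to 11 counts, miR-30e-3p 2 to 21 and miR-200a-3p 2 to 29, so their levels there are coarse. The cluster mate miR-194-5p had r = 0.48 and ranked 11. The red cell miRNAs miR-451a, miR-486a-5p, miR-144-3p and miR-16-5p had r of -0.35, 0.13, 0.27 and -0.32, and within the C26-bearing libraries -0.74, -0.19, 0.04 and -0.02. None of these correlations was recomputed without miR-5119.

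The lowest correlations were those of miR-8101 (r = -0.82), miR-8117 (-0.74) and miR-191-5p (-0.73). miR-8101 stood at 52.7, 61.7, 56.4 and 346 CPM in control replicates 1 to 4 and at 482, 251, 4206, 712, 10760 and 0 CPM in C26-bearing replicates 1 to 6, TMM-scaled. Its highest levels were in C26-bearing replicates 3 and 5, the libraries where miR-122-5p was lowest. Without these 2 libraries r was -0.28 for miR-8101 and -0.17 for miR-8117, so both relations rest on them, while r for miR-191-5p was -0.66. miR-8117 likewise had its highest level, 9467 CPM on 300 counts, in C26-bearing replicate 5. The functions of miR-8101 and miR-8117 are not well known, and what their counts represent was not tested.

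**Figure D5:**
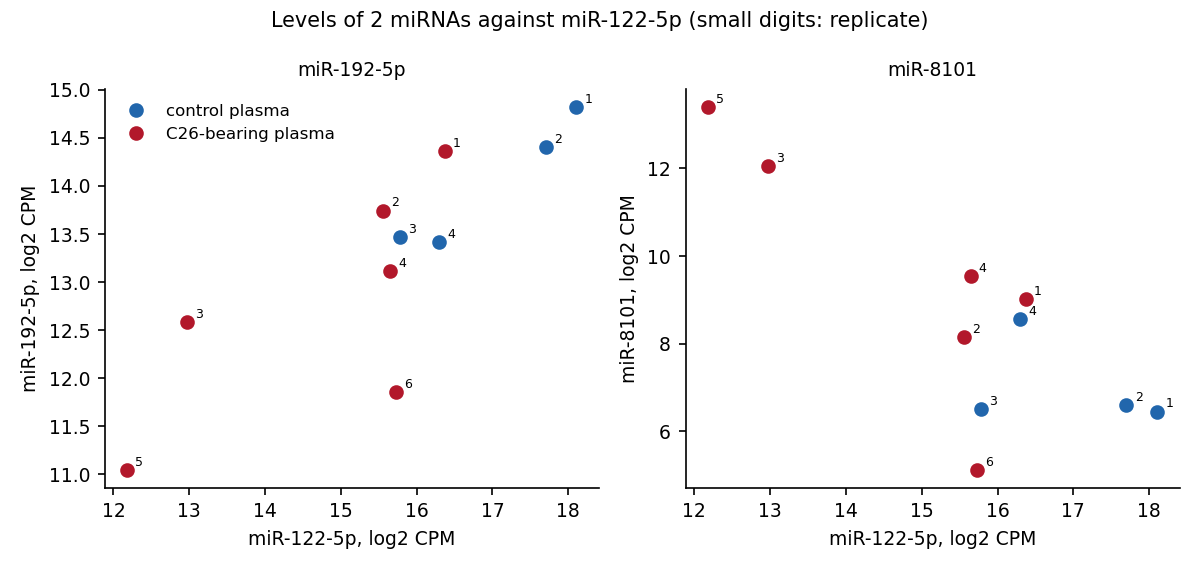
Level of miR-192-5p (left) and miR-8101 (right), as log2 TMM-scaled CPM with a prior count of 2 (vertical axes), against that of miR-122-5p (horizontal axes) in the 10 plasma libraries, numbered by replicate. miR-192-5p follows miR-122-5p (r = 0.84), and the low values of miR-122-5p in C26-bearing replicates 3 and 5 go with the highest values of miR-8101.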

How the data were processed

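Small RNA libraries were read as 75 bp single reads from vesicles pelleted at 100000 g, per the labels' protocols. Per the submitters' processing notes, bcl2fastq and cutadapt 1.10 were used. Aligner, counter, miRNA annotation and build: not given in the sources used here. Raw counts per mature miRNA were deposited by the authors in separate plasma and TMV tables. Groups come from the sample titles. The arms were matched by full name, so miR-1224 was not taken.

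Plasma counts were filtered with filterByExpr (minimum count 10), scaled with TMM and compared by the quasi-likelihood test of edgeR 4.0.16 (robust fit, R 4.3.3), with Benjamini-Hochberg adjustment over 130 miRNAs at 0.05. The SE is the absolute log2 fold change divided by the root of F. The fit was tested on simulated data. Ratios had 0.5 added to each count, and arm shares needed 100 counts of both arms. The 6 within-library measures used two-sided exact permutation tests over 210 splits (smallest p 0.00476) and were adjusted together, in Python 3.11.15 with scipy 1.17.1. Alternatives used DESeq2 1.42.0 and limma 3.58.1.

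The members, the liver-expressed list, the partners and the alternatives were chosen with earlier results of these data known. The miRNAs named are the arms, the list members with their counts, the 5 highest and 3 lowest correlations, 4 red cell miRNAs and those ranked above miR-122-5p. miR-215-5p, miR-148b-3p and miR-152-3p are named only for a shared seed.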

Additional observations from a re-analysis of the deposited data

How the results depend on the processing

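The log2 fold change of miR-122-5p stayed below 0 in all 25 alternatives, from -2.55 to -0.69, with edgeR, DESeq2 or voom adjusted p from 0.0103 to 0.998. It passed 0.05 only without a filter on low counts (-2.14, edgeR adjusted p = 0.0103). With each library left out in turn it ran from -2.25 to -1.51. RLE factors moved the median of all miRNAs by 0.18, and relative to that median miR-122-5p stood at -1.89, against -1.93 with TMM. Replicate numbers in the titles are shared by C26-bearing and control libraries, and whether they mark pairs is not stated. Libraries with the same title number had correlations of deviations of -0.37, -0.29, -0.30 and 0.16. None of the 4 controls correlated best with its title number, but so few libraries cannot decide on pairing. Control replicates 1 to 4 correlated best with C26-bearing replicates 6, 5, 6 and 1. Only control replicate 2, whose name carries 2 and 5, thus met a number in its name. Every best match lay between libraries alike in miR-5119, both rich or both poor, so these matches cannot show pairing. The numbers in the names, where control replicate 4 is 6, were not used as a block. With a replicate block the log2 fold change was -1.85 (edgeR adjusted p = 0.164), and the difference in the share of all counts was -11.2 percentage points (exact sign-flip p = 0.125, the smallest that 4 pairs allow).

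The share of all counts kept a negative difference in 16 of 16 alternatives. With each library left out in turn it ran from -15.3 to -8.71 percentage points. It passed only without C26-bearing replicate 1, whose removal ends the overlap of the groups. The share without miR-5119 and the 3 ratios kept their sign and stayed above an adjusted p of 0.05 in all alternatives run. The 3p share of both arms turned to -0.0258 percentage points among libraries poor in miR-5119. Both C26-bearing libraries there had 0 counts of the 3p arm, with limits of 2.05% and 0.194%, so this turn is not resolved.

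Signs turned for 4 list members. miR-22-3p was -0.19 with total counts only, -0.21 with no filter, -0.0247 with a 10 CPM filter, -0.0222 with voom, -0.25 without libraries under 10000 counts, -0.0652 without miR-5119 in the table, -0.48 among libraries poor in miR-5119 and -0.18 to 0.28 with each library left out. With a term for the miR-5119 sets, miR-101b-3p was -0.42 and miR-30a-5p -0.00988; among libraries poor in miR-5119 they were -0.998 and -0.34. miR-192-5p was 0.23 among libraries rich in miR-5119, which include 1 control. The causes were not tested. The count of miRNAs called, 0 of 130, was 4 with no filter, 4 with DESeq2, 17 with voom, 2 with the miR-5119 term, 1 among libraries rich in miR-5119 and 1 without C26-bearing replicate 2 or 3.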
